A study of Homo sapiens with 3 samples.

Results

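The nuclear genes for the subunits of the oxidative phosphorylation (OXPHOS) system were examined in HEK293T cells after knockdown of DDX24, a DEAD-box RNA helicase. Members were the protein-coding gene models on chromosomes whose symbols matched the families NDUFA, NDUFB, NDUFC, NDUFS, NDUFV, SDHA to SDHD, UQCR, CYC1, COX4 to COX8 and ATP5, without the NDUFAF assembly factors. The patterns did not match NDUFAB1, which was read in the list of electron carriers and coenzyme Q synthesis. The rule used gene names and positions but no measured value, and it found 90 genes of 67008 gene models in the count table, or of 19965 protein-coding models on chromosomes. Complex I had 39 of them, complex II 4, complex III 10, complex IV 17 and complex V 20. NDUFA4 and NDUFA4L2 were counted with complex I by their symbols, although the NDUFA4 protein is now known as a subunit of complex IV.

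The mitochondrial respiratory chain passes electrons from NADH (complex I) or succinate (complex II) through ubiquinone to complex III, then through cytochrome c to complex IV, which reduces oxygen. Complexes I, III and IV pump protons out of the matrix, and complex V, the ATP synthase, makes ATP as the protons return. Most subunits are encoded in the nucleus and imported, and a few of complexes I, III, IV and V, but none of complex II, are encoded by mitochondrial DNA.

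HEK293T cells derive from human embryonic kidney and express the large T antigen of SV40. The DDX24 knockdown group held 2 libraries, from cells infected with lentivirus carrying the hairpin shDDX24-1 (hairpin 1) or shDDX24-2 (hairpin 2), and the pLKO.1 control group held 1 library, from cells labelled WT that received the pLKO.1 vector. In all 3 libraries the dose of virus was 5 particles per cell, polybrene was present at 8 µg/mL and the time was 72 hr, and poly(A) RNA was sequenced as 100 bp paired-end reads. The labels do not say whether the cultures or their RNA were prepared independently, so a p-value covers the spread among these 3 libraries alone, and the single control is assumed to vary like the hairpin libraries.

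Total counts were 36738685 with hairpin 1, 37828270 with hairpin 2 and 52198744 in the control. DDX24 itself had 0 counts in every library, so its knockdown could not be measured and the labels could not be checked by it. DDX24 and the markers below were read from models on chromosomes only, without copies on other scaffolds. A 0 thus does not show that the RNA was absent. HMOX1, the heme oxygenase gene that the study's title links to DDX24, was at 49.2 and 50.03 CPM in the knockdown libraries, against 91.3 CPM in the control (CPM, the count relative to the TMM-scaled size of its library). Of 9 marker genes of HEK293T cells, 8 reached 1 CPM in at least 1 library; LHX1 stayed below 0.2 CPM. The summed level of 7 fibroblast markers was 46.6 and 37.0 CPM in the knockdown libraries, against 38.7 CPM in the control. Markers of leukocytes summed to 1.59 to 2.84 CPM and those of endothelium to 0.298 to 0.473 CPM over the 3 libraries, and 4 of 5 markers of mature kidney were at 0 counts. The part of any such cells in the results was not tested.

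No OXPHOS subunit gene passed the test between DDX24 knockdown and the control. HMOX1 did not pass it either, at a log2 fold change of -0.88. With a single control library, failing the test does not show that a gene was unchanged. The 90 genes together took 1.03% of all counts with hairpin 1, 1.06% with hairpin 2 and 1.01% in the control. Their summed level was 10276 CPM with hairpin 1, 10800 CPM with hairpin 2 and 10009 CPM in the control. The hairpin sums were 0.04 and 0.11 above the control on the log2 scale. In bulk RNA, a difference in the number of cells of a type and a difference in RNA per cell cannot be told apart.

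By complex, the sums moved within a narrow range. Complex I genes summed to 2816 and 2929 CPM in the knockdown libraries, against 2721 CPM in the control. Complex II genes summed to 411 and 421 CPM with the hairpins, against 417 CPM in the control, which lies between them. Both knockdown libraries were above the control for complex III (1578 and 1665 CPM, against 1489 CPM), complex IV (1526 and 1615 CPM, against 1488 CPM) and complex V (3945 and 4169 CPM, against 3894 CPM). For each of these 4 complexes the hairpin 2 library was the higher of the 2, and its log2 sum ratio to the control ran between 0.10 and 0.16; hairpin 1 gave 0.02 to 0.08.

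**Figure D1:**
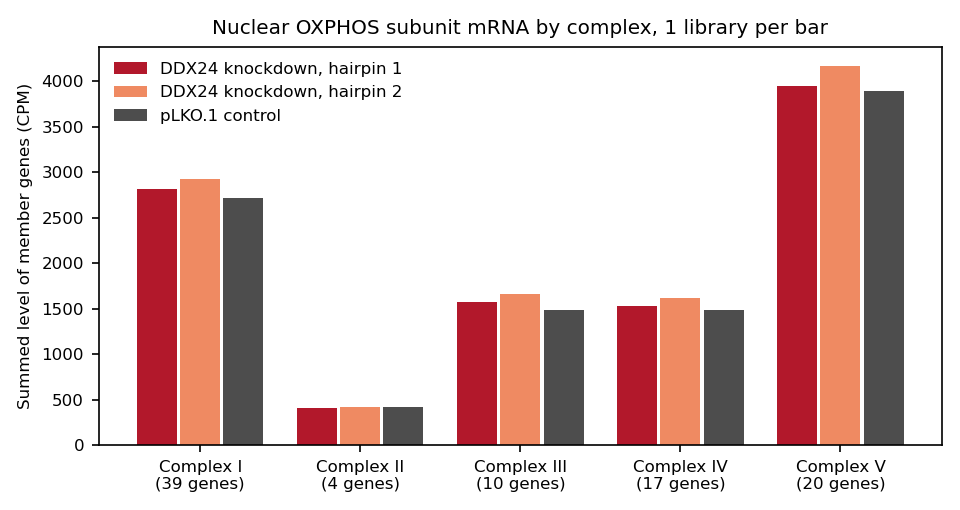
Summed level of the member genes of each complex, in CPM (vertical axis, from 0), with 1 bar per library and the number of genes under each complex. The bars of complexes I, III, IV and V stand slightly higher with both hairpins than in the control, while the complex II bars lie between 411 and 421 CPM.

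Counts were tested with edgeR's quasi-likelihood test over 17713 genes, of which 78 were members, with Benjamini-Hochberg adjustment at 0.05. The other 12 members had too few counts to be tested. The test called 0 of the 78 members, and it called 2 of all 17713 genes (0.0113%), both lower in the knockdown libraries. The lowest adjusted p of a tested member was 0.999. DESeq2 and limma-voom also called 0 members, with 3 (0.0169%) and 1 (0.00565%) of all genes called. At an unadjusted edgeR p under 0.05, 3 members (ATP5ME, ATP5MF and UQCR10) were higher in the knockdown libraries (3.85%; 1.4% of all tested genes) and 0 were lower (2.48% of all tested genes).

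The median edgeR log2 fold change, knockdown over control, was 0.10 over the 78 tested members (SD over genes 0.19) and 0.01 over all tested genes (SD 0.39). Per complex, the median was 0.11 for 35 genes of complex I, -0.07 for 4 of complex II, 0.14 for 10 of complex III, 0.10 for 12 of complex IV and 0.08 for 17 of complex V. From a single hairpin the complex II median was 0.010 (hairpin 1) or -0.019 (hairpin 2), so its sign rested on which libraries entered. The complex III median was 0.089 from hairpin 1 and 0.18 from hairpin 2. Among genes with at least 5 CPM in some library, the medians were 0.10 for 73 members and 0.02 for all. Members spread less than other genes, with an SD of 0.15 against 0.19 at that level.

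Each hairpin was also set against the control on its own, as a log2 ratio of CPM with a prior count of 2. The ratio was above 0 for 51 of 78 members with hairpin 1 (65.4%; 50.4% of all tested genes) and for 59 with hairpin 2 (75.6%; 49.5%). A log2 ratio of 0.32 or more was reached by 9 members with hairpin 1 (11.5%; 12.3% of all tested genes) and by 9 with hairpin 2 (11.5%; 10.4%). A log2 ratio of -0.32 or less was found for 1 member with hairpin 1 (1.28%; 11.5%) and 1 with hairpin 2 (1.28%; 18%). Shares past the limit on the higher side were thus near those of all genes, while fewer members than genes in general lay past it on the lower side. Among the 73 members at 5 CPM or more, 6 with hairpin 1 (8.22%; 5.25% of all such genes) and 7 with hairpin 2 (9.59%; 5.54%) lay past the limit on the higher side. On the lower side 0 of the 73 did with either hairpin (3.31% of all such genes with hairpin 1 and 8.14% with hairpin 2). Both ratios were above 0 for 45 of 78 members (57.7%, against 31.9% of all tested genes). Both were below 0 for 13 members, and for 5666 of all 17713 tested genes. The 2 ratios share the control library, so a high or low control value moves both.

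**Figure D2:**
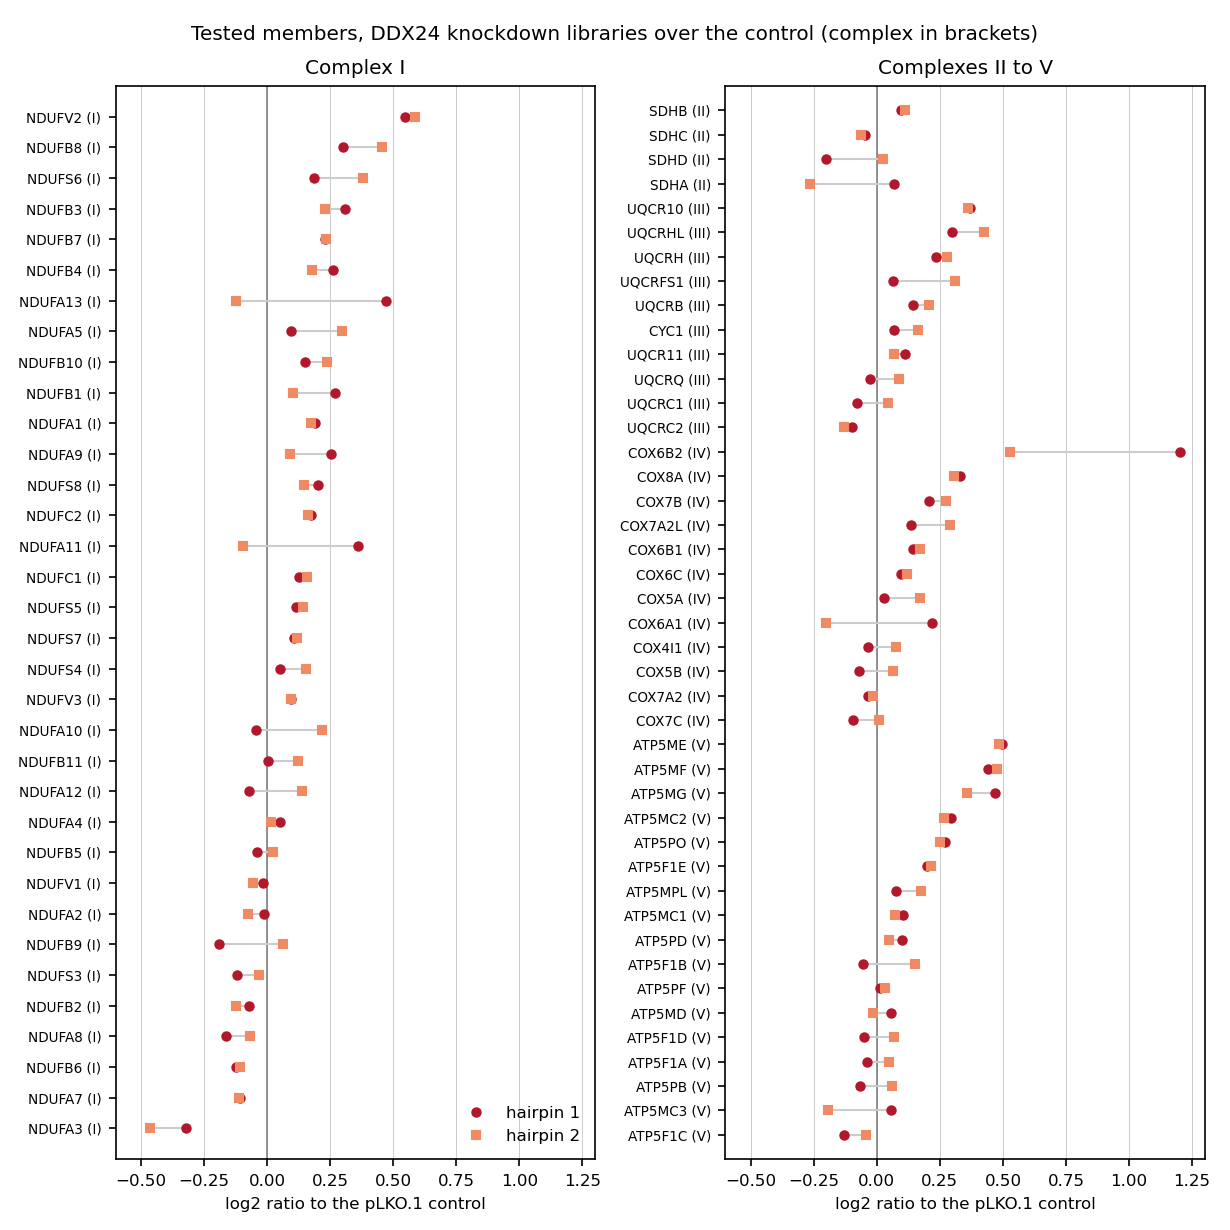
Log2 ratio of the tested members to the pLKO.1 control (horizontal axis; 1 member of complex I is not drawn), circles for hairpin 1 and squares for hairpin 2, with genes grouped by complex and ordered by fold change. Most points lie between -0.25 and 0.50, and lines cross 0 where the hairpins fall on opposite sides of the control.

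Complex I takes electrons from NADH through a core that is shared with bacteria and is surrounded by accessory subunits. Of its 7 nuclear core genes 6 were tested, with a median log2 fold change of 0.04. NDUFV1, which carries the NADH-binding flavin site, was at 168 and 164 CPM in the knockdown libraries, against 170.2 CPM in the control. Both knockdown libraries lay slightly below the control. NDUFS8, an iron-sulfur subunit, was at 114 and 109.9 CPM in the knockdown libraries and 99.3 CPM in the control, a log2 fold change of 0.17 ± 0.13 (SE). NDUFS3, a core subunit of the matrix arm, had 68.6 and 72.9 CPM in the knockdown libraries, against 74.6 CPM in the control.

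The accessory genes of complex I had a median of 0.13 over 29 tested genes. NDUFS6, a zinc-binding accessory subunit of the matrix arm, was at 78.4 and 89.5 CPM in the knockdown libraries, against 68.8 CPM in the control (log2 fold change 0.29 ± 0.15, SE). The membrane-arm subunit NDUFB3 was at 55.0 and 52.02 CPM with the hairpins, against 44.4 CPM in the control (0.27 ± 0.14). For both genes each knockdown library lay above the control. NDUFB7 (0.23 ± 0.13) and NDUFB4 (0.22 ± 0.13) were also above the control in both knockdown libraries. NDUFA5 (0.20 ± 0.14) was at 141 and 162 CPM with the hairpins, against 132 CPM in the control, with hairpin 1 the closer to it. NDUFB8 had 186 and 208 counts with the hairpins and 215 in the deeper control, or 5.03 and 5.61 CPM against 4.07 CPM. On the other side, NDUFB6 was at 69.7 and 70.5 CPM in the knockdown libraries, against 76.0 CPM in the control (-0.12 ± 0.13). NDUFA8 was at -0.11 ± 0.13 and NDUFB2 at -0.10 ± 0.13 on the same scale.

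NDUFB9 had the highest level per transcript length of complex I in the control, at 269 and 321 CPM per kilobase with the hairpins and 307 in the control, so the control lay between the hairpins. The complex I genes at 5 CPM or more that differed most between the hairpins were NDUFA11 and NDUFA10, both accessory subunits of the membrane arm. NDUFA11 was at 5.96 CPM with hairpin 2 and 8.17 CPM with hairpin 1, against 6.36 CPM in the control. NDUFA10 went the other way between the hairpins, with 159 CPM for hairpin 2 and 133 CPM for hairpin 1, against 137 CPM in the control.

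Complex II oxidises succinate and is also an enzyme of the tricarboxylic acid cycle. Its iron-sulfur subunit gene SDHB was at 154 and 156 CPM in the knockdown libraries, against 144 CPM in the control (0.10 ± 0.13). The membrane anchor genes were SDHC, at 184 and 182 CPM with the hairpins against 190.3 CPM in the control, and SDHD, at 66.5 and 77.8 CPM against 76.5 CPM. SDHD with hairpin 2 thus lay near the control and with hairpin 1 below it. The flavoprotein gene SDHA had 240 and 191 counts with the hairpins and 327 in the control, or 6.49 and 5.15 CPM against 6.19 CPM.

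In complex III, the genes for both electron-carrying subunits, cytochrome c1 (CYC1) and the Rieske iron-sulfur protein (UQCRFS1), were above the control in both knockdown libraries. CYC1 was at 214 and 228 CPM with the hairpins, against 204 CPM in the control (0.12 ± 0.13). UQCRFS1 was at 117 and 139 CPM with the hairpins, against 112 CPM in the control (0.19 ± 0.15); the hairpin 1 value was close to the control. The core proteins are related to mitochondrial processing peptidases. UQCRC1 was at 318 and 346 CPM with the hairpins around 336 CPM in the control. UQCRC2 was below the control in both knockdown libraries, at 134 and 131 CPM, against 143 CPM.

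The 5 genes for the small subunits of complex III had a median log2 fold change of 0.17 and summed to 781 and 805 CPM in the knockdown libraries, against 682 CPM in the control. UQCR10, a small membrane subunit (chr22:29767369-29770413, plus strand, GRCh38), was at 170.3 and 169 CPM in the knockdown libraries, against 132 CPM in the control. Both knockdown libraries lay above the control, and the hairpins were nearly equal. UQCR10 had a log2 fold change of 0.37 ± 0.13 (SE) and an edgeR adjusted p of 0.999. UQCRH, the acidic hinge protein that binds the cytochrome c1 subunit, was at 251 and 259 CPM with the hairpins, against 214 CPM in the control (0.26 ± 0.13). UQCRB stood at 0.17 ± 0.13 in log2 fold change, UQCR11 at 0.09 ± 0.15 and UQCRQ at 0.03 ± 0.13; the UQCRQ ratio was -0.027 with hairpin 1 and 0.089 with hairpin 2.

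UQCRHL, an intronless copy of UQCRH, was at 14.7 and 16.1 CPM in the knockdown libraries, against 12.0 CPM in the control (0.36 ± 0.18). The coding sequences of UQCRH (chr1:46303698-46316776, plus strand, GRCh38) and UQCRHL (chr1:15807169-15809348, minus strand) are shown because reads from one could be counted for the other. They are given 5′ to 3′ from the transcripts of GENCODE release 29, and the capitals mark the 4 bases of 276 at which they differ.
UQCRH: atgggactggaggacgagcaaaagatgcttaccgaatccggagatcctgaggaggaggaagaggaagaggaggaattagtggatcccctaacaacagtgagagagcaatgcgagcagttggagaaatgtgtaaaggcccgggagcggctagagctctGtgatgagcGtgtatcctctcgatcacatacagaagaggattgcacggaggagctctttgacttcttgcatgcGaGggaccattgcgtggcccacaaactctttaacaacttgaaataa
UQCRHL: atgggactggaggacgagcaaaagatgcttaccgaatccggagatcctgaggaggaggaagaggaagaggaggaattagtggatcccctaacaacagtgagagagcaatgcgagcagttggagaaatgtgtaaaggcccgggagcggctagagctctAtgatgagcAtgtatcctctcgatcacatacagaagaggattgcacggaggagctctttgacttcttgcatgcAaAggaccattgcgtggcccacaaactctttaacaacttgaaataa
The coding sequences are 98.6% identical, and their longest identical run of 157 bases exceeds the 100 bp reads. Values for UQCRHL, and to a smaller degree UQCRH, are uncertain for that reason.

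Complex IV had 11 ubiquitously expressed members, all tested, with a median log2 fold change of 0.10. COX4I1, which had the highest level per length of this complex in the control, was at 357 and 385 CPM per kilobase with the hairpins, against 366 in the control. COX8A, a small membrane subunit, was at 29.5 and 29.1 CPM with the hairpins, against 23.5 CPM in the control (0.32 ± 0.15). COX7B was at 196 and 206 CPM with the hairpins, against 170.1 CPM in the control (0.24 ± 0.13). COX7A2L, known for its part in assembling respiratory supercomplexes, was at 76.9 and 85.5 CPM with the hairpins, against 69.9 CPM in the control (0.22 ± 0.14). Each of these 3 genes was higher in both knockdown libraries than in the control. COX6B1 lay at 0.16 ± 0.13, COX5B at 0.00 ± 0.13, COX7A2 at -0.02 ± 0.13 and COX7C at -0.04 ± 0.13. NDUFA4 was at 196 and 191 CPM with the hairpins, against 189 CPM in the control.

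Forms of complex IV subunits known from muscle, lung or testis were at 0 or near it. COX4I2, COX6A2, COX7A1, COX7B2 and COX8C had 0 counts in all 3 libraries, which allows up to 0.0812 CPM with hairpin 1, 0.0809 CPM with hairpin 2 and 0.0568 CPM in the control (limit of 3 counts per library, counting error only). COX8C has a same-named copy on a second scaffold, which was at 0 as well. How reads that fit several places were counted is not known, so the limit may not hold for COX8C. COX6B2 had 28 and 17 counts with the hairpins and 16 in the control, or 0.757 and 0.458 CPM against 0.303 CPM. Its log2 fold change of 1.00 ± 0.48 rests on few counts: the 95% interval for counting error ran from 0.39 to 2.31 for hairpin 1 over the control and from -0.48 to 1.68 for hairpin 2. NDUFA4L2, known as a hypoxia-induced form, had 9 and 6 counts with the hairpins and 11 in the control. COX6A1, the ubiquitous partner of COX6A2, differed most between the hairpins within complex IV among genes at 5 CPM or more, with 16.0 CPM for hairpin 2 and 21.4 CPM for hairpin 1, against 18.4 CPM in the control.

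In complex V, the catalytic head (F1) was encoded by 5 genes with a median log2 fold change of 0.01. ATP5F1B, the catalytic beta subunit, was the most abundant OXPHOS mRNA of the list both by CPM and per length. It was at 1234 and 1424 CPM in the knockdown libraries, against 1284 CPM in the control, so the control lay between the hairpins. The alpha subunit gene ATP5F1A was likewise at 593 and 630 CPM with the hairpins around 609 CPM in the control, and the gamma subunit gene ATP5F1C was at 249.5 and 265 CPM with the hairpins, against 273 CPM in the control (-0.09 ± 0.13). ATP5F1E, the epsilon subunit, was above the control in both knockdown libraries, with 182 and 184 CPM against 158 CPM in the control.

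The largest differences at 5 CPM or more lay among the small membrane subunits of the ATP synthase. Their 5 tested genes summed to 360 and 365 CPM in the knockdown libraries, against 300 CPM in the control, and their median log2 fold change was 0.42. ATP5ME (subunit e; chr4:672436-674330, minus strand, GRCh38) was at 115 and 114 CPM in the knockdown libraries, against 81.6 CPM in the control. The log2 fold change of ATP5ME was 0.49 ± 0.13 (SE), with an edgeR adjusted p of 0.999. ATP5MF (subunit f; chr7:99448475-99466331, minus strand) was at 49.9 and 51.2 CPM with the hairpins, against 36.8 CPM in the control. For ATP5MF the fold change on that scale was 0.46 ± 0.14 (SE), also with an edgeR adjusted p of 0.999. ATP5MG (subunit g) was at 15.9 and 14.7 CPM with the hairpins, against 11.5 CPM in the control (0.42 ± 0.18). This value is also the median of the 5 genes. ATP5MG is among the low members with shared annotation described below, so its level is uncertain. Subunits e and g are known to act at the interface of ATP synthase dimers. For all 3 genes both knockdown libraries lay above the control, as for 45 of 78 tested members (57.7%, against 31.9% of all tested genes). The 2 remaining genes, ATP5MPL and ATP5MD, were at 0.13 ± 0.13 and 0.02 ± 0.13; the ATP5MPL ratio was 0.076 with hairpin 1 and 0.17 with hairpin 2.

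The counting error of these differences was small: for ATP5ME the 95% interval of the log2 ratio was 0.43 to 0.56 with hairpin 1 and 0.43 to 0.55 with hairpin 2. On the opposite strand MYL5 overlaps 61.6% of the exon bases of ATP5ME, and it held 205 and 174 counts with the hairpins and 235 in the control; ATP5ME held 4255 and 4242 counts with the hairpins and 4309 in the control. Without a known strand setting, reads of the overlap cannot be told apart. ATP5MF shares exons with the read-through model ATP5MF-PTCD1, which held 4 and 3 counts with the hairpins and 6 in the control. Its exons also overlap those of PTCD1 on the same strand. PTCD1 held 438 and 389 counts with the hairpins and 534 in the control, and ATP5MF held 1846 and 1901 with the hairpins and 1943 in the control.

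The ring of c subunits, through which protons pass, is encoded by 3 genes that make the same mature protein. ATP5MC2 was at 233 and 228 CPM in the knockdown libraries, against 190 CPM in the control (0.28 ± 0.13). ATP5MC1 was at 137 and 134 CPM with the hairpins, against 128 CPM in the control (0.09 ± 0.13). ATP5MC3 differed between the hairpins, with 274 CPM for hairpin 2 and 326 CPM for hairpin 1, against 314 CPM in the control. The summed c-subunit mRNA was 696 and 637 CPM in the knockdown libraries, against 631 CPM in the control. The 4 peripheral stalk genes had a median of 0.05; the b subunit gene ATP5PB was at 324 and 354 CPM with the hairpins around 340 CPM in the control, and ATP5PO, the oligomycin sensitivity protein, was at 20.0 and 19.7 CPM with the hairpins, against 16.6 CPM in the control.

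The hairpins differed from each other in small steps and in both directions. For 29 of 78 members the 95% counting interval of hairpin 2 over hairpin 1 lay above 0 (37.2%; 22.5% of all tested genes), and for 6 it lay below 0 (7.69%; 20.1%). These intervals cover counting error only and, with 1 library per hairpin, not the spread between cultures. They are also narrower at higher counts. At least 5 CPM was reached by 73 of the 78 members and by 10995 of the 17713 tested genes. The shares were not compared at a matched level. Past the limit used above the direction was the other one. The log2 ratio of hairpin 2 over hairpin 1 was 0.32 or more for 0 of 78 members (10.4% of all tested genes) and -0.32 or less for 5 (6.41%; 18.6%). The 5 were NDUFA11, NDUFA13, SDHA, COX6A1 and COX6B2; NDUFA13 and COX6B2 had no more than 56 counts in any library. All 5 lay below 25 CPM, and all 5 share annotated sequence with another gene model, as described in the next paragraph. Among the 73 members at 5 CPM or more, the ratio was -0.32 or less for 3 (4.11%; 9.32% of all such genes). It was 0.32 or more for 0 of the 73, and for 553 of the 10995 such genes.

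Low levels in this list went with shared annotation. Of 79 members that are neither tissue-restricted forms nor copies or read-through models, 17 lay below 25 CPM in the control, and 16 of those had a same-named copy on a second scaffold (4 genes), at least 5% of their exon bases overlapped by a model on the same strand (11 genes) or pseudogenes with at least 10% of their own counts (4 genes). The one without was NDUFS4. Among the 62 members at 25 CPM or more, 8 had such a feature. These limits were chosen after the values were seen. The sources used here do not give how reads that fit several places were counted, and the levels of these 16 genes are uncertain. Among the 16 are NDUFB8, COX8A, ATP5MG and ATP5PO, whose values are given above.

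NDUFS1 and NDUFA6 of complex I and the ATP synthase inhibitor gene ATP5IF1 were listed at 0 counts in every library, and each has such a copy. The copies of NDUFS1 and ATP5IF1 were at 0 counts as well. A copy of NDUFA6 on another scaffold held 89 and 123 counts with the hairpins and 123 in the control, and its other copies were at 0. SDHA held fewer counts than its pseudogene SDHAP3, which had 1094 and 1084 counts with the hairpins and 1612 in the control. COX6A1P2 held 565 and 592 counts with the hairpins and 764 in the control, against 791 and 593 and 971 for COX6A1 itself. NDUFV2, a core subunit of complex I, held 59 and 61 counts with the hairpins and 57 in the control, and its pseudogene NDUFV2P1 held 77 and 82 with the hairpins and 109 in the control. The read-through model NDUFC2-KCTD14 was at 0, and ATP5MGL, a copy of ATP5MG, held at most 2 counts in any library. Over the 56 tested members without any of these features the median log2 fold change was 0.09.

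**Figure D3:**
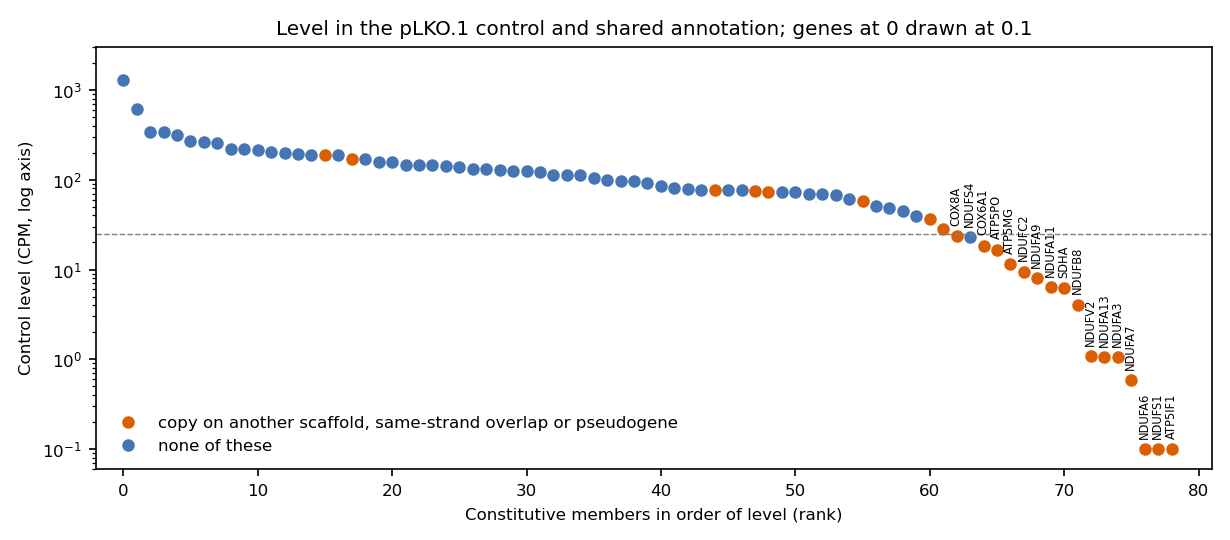
Level of 79 members in the pLKO.1 control (CPM, log axis, genes at 0 drawn at 0.1) in order of level; orange marks genes with a scaffold copy, a same-strand overlap or a pseudogene as defined in the text, and the dashed line lies at 25 CPM. Nearly all genes right of the line's crossing are orange.

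OXPHOS transcripts are short: the median length of the annotated principal transcript was 924 bases over the tested members and 3076 bases over tested protein-coding genes. The 39 members up to that median had a median log2 fold change of 0.11, and the 39 above it 0.09. Other protein-coding genes no longer than 924 bases had a median of 0.07 (490 genes), or 0.10 where they reached 5 CPM (323 genes), while the 12712 longer ones had 0.01. With no limit on CPM, short members were above the control in 74.4% of cases with hairpin 1 and 79.5% with hairpin 2. The shares were 65.3% and 58.4% of the 490 other short genes. They were 70.9% and 67.5% of the 323 that reached 5 CPM. Across the tested members, Spearman's rho of log2 fold change with length was -0.19 (78 genes from the same libraries, a description only); it was -0.08 over 13280 protein-coding genes. Over the members, the log2 ratio of hairpin 1 alone gave -0.27 and that of hairpin 2 alone -0.086. The part of transcript length in the members' median was not tested. With a loess trend on GC content and on the length of the longest, not the principal, transcript removed, that median was 0.10.

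**Figure D4:**
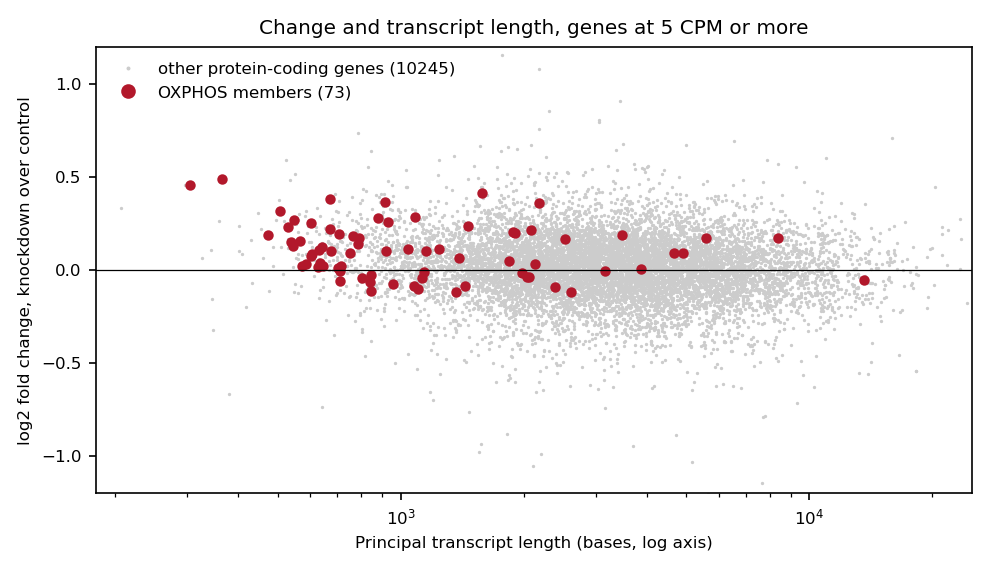
Log2 fold change, knockdown over control (vertical axis), against the length of the principal transcript in bases (log axis), for genes at 5 CPM or more: 73 members in red and 10245 other protein-coding genes in grey, 6 of which fall outside the range drawn. The members with the highest values, ATP5ME and ATP5MF, are also the shortest.

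Promoters of OXPHOS genes are known for sites of the activators NRF1, ETS-family factors (GABP) and YY1, and 3 promoters are printed as examples: those of ATP5ME and UQCR10, which had unadjusted p under 0.05, and that of NDUFB3, which was also above the control. Each runs from 250 bases before to 50 bases after the gene's start, 5′ to 3′ in the gene's direction, from RefSeq on GRCh38.p14. They lie at chr4:674227-674526 (minus strand), chr22:29767119-29767418 (plus strand) and chr2:201071751-201072050 (plus strand). Capitals mark matches to GCGC, any base, then TGCGC (NRF1), to CCGGAAG (ETS) or to AAGATGGCG (YY1) on either strand.
ATP5ME: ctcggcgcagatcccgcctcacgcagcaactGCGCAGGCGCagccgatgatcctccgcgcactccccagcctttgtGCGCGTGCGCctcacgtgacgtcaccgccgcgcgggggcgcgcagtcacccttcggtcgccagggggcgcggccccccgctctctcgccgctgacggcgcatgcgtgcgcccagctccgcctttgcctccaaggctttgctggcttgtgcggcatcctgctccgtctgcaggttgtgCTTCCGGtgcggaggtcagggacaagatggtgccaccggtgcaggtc
UQCR10: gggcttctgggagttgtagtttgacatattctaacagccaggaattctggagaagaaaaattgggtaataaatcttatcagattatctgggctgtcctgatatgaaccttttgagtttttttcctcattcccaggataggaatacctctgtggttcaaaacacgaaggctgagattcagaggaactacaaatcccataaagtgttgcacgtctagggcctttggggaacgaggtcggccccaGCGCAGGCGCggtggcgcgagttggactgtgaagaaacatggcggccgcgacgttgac
NDUFB3: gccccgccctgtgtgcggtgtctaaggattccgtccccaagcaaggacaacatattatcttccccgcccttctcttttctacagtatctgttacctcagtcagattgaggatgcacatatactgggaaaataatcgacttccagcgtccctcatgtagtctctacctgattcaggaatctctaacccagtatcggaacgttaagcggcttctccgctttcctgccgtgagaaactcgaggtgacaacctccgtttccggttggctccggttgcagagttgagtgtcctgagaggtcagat
ATP5ME held matches for NRF1 and ETS, UQCR10 for NRF1, and NDUFB3 for none of the 3 motifs.

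The table had a promoter for 72 of the 90 members. The shares of all promoters given here are over 22199 promoters of protein-coding genes. The NRF1 letters were found in 17 of the 72 (23.6%; 7.39% of all promoters), the ETS letters in 20 (27.8%; 12.8%) and the YY1 letters in 8 (11.1%; 2.41%). GGGGCGGGG, a GC box bound by SP1, was found in 10 (13.9%; 20.6%). All were searched on both strands, and an ETS and a YY1 match can share the bases AAG. Among tested members, the median log2 fold change was 0.11 with and 0.10 without an NRF1 match, 0.09 with and 0.11 without an ETS match, 0.10 with and 0.12 without a YY1 match, and 0.16 with and 0.10 without an SP1 match. These medians are descriptions of the same libraries, without a test.

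Other genes of the pathway were read from the same fit, and none of them passed the test. Over the 13 subunits encoded by mitochondrial DNA the median log2 fold change was 0.14, and 4 were higher at an unadjusted p under 0.05 (30.8%; 1.4% of all tested genes) and 0 lower (2.48% of all tested genes). MT-ND6 was at 165 and 241 CPM in the knockdown libraries, against 134 CPM in the control. MT-ND4L was at 850 and 766 CPM with the hairpins, against 589 CPM in the control, while MT-ND3 lay lower at 673 and 617 CPM against 717 CPM. These RNAs come from few long precursors and share much of their signal, so they are not independent of each other.

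For 50 tested assembly factors the median was 0.03, with 1 gene higher (1.4% of all tested genes) and 2 lower (2.48%) at an unadjusted p under 0.05, close to the shares of all genes. LYRM7, which matures the Rieske protein, was at 84.8 and 81.9 CPM in the knockdown libraries, against 106 CPM in the control. SDHAF4, an assembly factor of complex II, was at 6.25 and 4.10 CPM with the hairpins, against 8.39 CPM in the control. UQCC3, of complex III, was at 21.3 and 26.8 CPM with the hairpins, against 17.4 CPM in the control, and COX20, of complex IV, was at 17.5 and 30.2 CPM against 18.6 CPM. SURF1 was at 0 counts in all libraries. For these other lists only models on chromosomes were read, and copies on other scaffolds were not looked up. A 0 here or below thus does not show that the RNA was absent.

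The 19 genes listed for electron carriers and coenzyme Q synthesis, NDUFAB1 among them, had a median of 0.00. At an unadjusted edgeR p under 0.05, 0 were lower (2.48% of all tested genes) and 1 was higher (1.4%). This gene was DHODH, the pyrimidine-synthesis enzyme that reduces ubiquinone, at 18.3 and 18.3 CPM with the hairpins, against 13.4 CPM in the control. COQ8B was at 0.21 in log2 fold change, COQ2 at -0.30 and COQ8A at -0.32. Of 18 genes of the tricarboxylic acid cycle and pyruvate dehydrogenase, 0 reached that level in either direction, and the median was 0.02. IDH3G was at 0.20, IDH3A at 0.16, FH at -0.18 and PDHA1 at -0.22; PDHA1 differed between the hairpins, with 144 CPM for hairpin 2 and 204 CPM for hairpin 1, against 202 CPM in the control. Regulators of mitochondrial gene expression had a median of 0.04 over 17 tested genes, again with 0 at that level. PPARGC1B was at 0.23, POLG2 at 0.20, TFB2M at -0.05 and SSBP1 at -0.11, and the coactivator PPARGC1A was at 0 counts in every library.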

How the data were processed

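The authors deposited raw, whole-number counts per gene model, not normalized, for 3 poly(A) RNA libraries; the submitters' processing notes name STAR 2.7.3a, DESeq2 1.26 and GRCh38 (hg38). The sources used here do not give the read counter, whether it used strand, or the annotation release. The members and lists were chosen with earlier results of these data known.

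Counts were scaled by TMM, filtered with filterByExpr (minimum count 10) and tested with edgeR 4.0.16 in R 4.3.3 (glmQLFTest, 1 residual degree of freedom, Benjamini-Hochberg over 17713 genes). SE is the log2 fold change over the root of F. The script was tested on simulated data. Intervals are Clopper-Pearson at 95%, for counting error only. Lengths, overlaps and coding sequences came from GENCODE release 29, which held all 90 members when identifier versions were ignored. Of the 90, 45 had the same coordinates there, so lengths and overlaps of the others may differ from the models counted. Of the 67008 gene models, 41838 shared a versioned identifier, all with the same coordinates. Named members were, per complex and at 5 CPM or more, the largest log2 fold changes in each direction, the pair most different between hairpins and the highest per kilobase, plus genes at 0 and paralogous forms; other lists gave up to 2 genes each way. NDUFV1, NDUFS8, CYC1, UQCRB, UQCR11, UQCRQ, ATP5F1A, ATP5F1E, ATP5MPL, ATP5MD and ATP5PO were also named, outside this rule. They were not among the named members followed through the alternatives. Genes named for shared annotation were chosen after their values were seen. Alternatives were DESeq2 1.42.0, limma-voom (limma 3.58.1), other scalings, filters, thresholds and prior counts, a GC and length correction, and leaving out each hairpin. Values of 1 tested member are not reported here.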

Additional observations from a re-analysis of the deposited data

How the results depend on the processing

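No member was called under any alternative run, and the lowest adjusted p of a named member was 0.671. The number of all genes called was 2; it was 0 with DESeq2 size factors, 7 with library totals, 0 with no filter, 1 with a 5 CPM filter, 1 with limma-voom and 1 with edgeR's legacy fit, and the cause was not tested. The members' median log2 fold change of 0.10 was 0.076 with library totals, which moved the median of all genes to -0.02, and 0.087 with no filter, where 81 members were tested; without 1 hairpin it ran from 0.094 to 0.12. The complex II median was 0.010 from hairpin 1 alone and -0.019 from hairpin 2 alone. Over the 56 members without shared annotation, an alternative added after seeing the data, it was 0.09.

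Of the values of 43 named members under the other alternatives, 255 kept their direction and side of the threshold and 3 changed sign: COX6A1 (-0.00048) and COX4I1 (-0.0059) with library totals, and ATP5PB (0.028) with the GC and length trend removed. Leaving out 1 hairpin changed the sign for 13. The values from each hairpin alone ran from -0.095 to 0.36 for NDUFA11, -0.046 to 0.22 for NDUFA10, -0.19 to 0.064 for NDUFB9, -0.27 to 0.068 for SDHA, -0.20 to 0.025 for SDHD, -0.080 to 0.042 for UQCRC1, -0.094 to 0.0079 for COX7C, -0.072 to 0.064 for COX5B, -0.20 to 0.22 for COX6A1, -0.035 to 0.075 for COX4I1, -0.19 to 0.055 for ATP5MC3, -0.068 to 0.060 for ATP5PB and -0.057 to 0.15 for ATP5F1B. No paired analysis was possible because the control is a single library. Depth limited COX6B2, NDUFA3, NDUFA7, NDUFA13 and NDUFV2, each under 100 counts in every library, and the 12 members not tested.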
